A study of Mus musculus with 15 samples.

Results

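Transcripts of 33 centromere and kinetochore genes were followed in single mouse oocytes at 2 stages of maturation. The genes were taken from a fixed list of symbols and mapped to the Ensembl gene IDs of the count files, and all 33 were found among the 28785 gene IDs counted. They fall into 3 groups by role: 5 genes of CENP-A loading and centromere DNA binding, 15 genes of the constitutive centromere-associated network (CCAN), and 13 genes of the outer kinetochore. Knl1 is the gene called Casc5 in older tables.

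Centromeres are marked by nucleosomes that contain CENP-A, a variant of histone H3. The CCAN binds this chromatin throughout the cell cycle and carries the outer kinetochore, whose protein complexes hold spindle microtubules and recruit the spindle checkpoint. A fully grown oocyte makes little new RNA, so that the kinetochores of both meiotic divisions are built from stored transcripts and proteins, and CENP-A itself is retained at oocyte centromeres for long periods.

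The 9 oocytes of the germinal vesicle (GV) stage, which is the fully grown oocyte arrested in prophase of meiosis I, came from female mice of 6 to 8 weeks that received 7 IU of pregnant mare serum gonadotropin 44 h before collection. The 6 oocytes of the MII stage, the egg arrested at the second meiotic metaphase, came from females of the same age that received a second injection, 7 IU of human chorionic gonadotropin, about 48 h after the first. Oviducts were opened 20 h after it, and cumulus cells were digested away with 300 IU/mL hyaluronidase. Each library holds 1 oocyte and was made with MATQ-seq, a method that primes total RNA at many positions along a transcript. The labels name neither strain nor mouse, so the oocytes of a stage count as cells of 1 sample, and no test of the stages, p-value or standard error was made.

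Total counts were 3687610 to 7103063 in GV and 808641 to 2348281 in MII, and an unnamed feature (ENSMUSG00000119584) took 15.7% to 61.2% of the MII counts, 0 in GV1 to GV6 and 3.43% to 11.2% in GV7 to GV9. The GV files fall into 2 sets by their column headers, the Y set (GV1 to GV6, headers with Y) and the E set (GV7 to GV9, headers with E), and the labels do not say what these letters stand for. The MII oocytes share another header, exon, which no GV oocyte has. A difference between the stages therefore cannot be told apart from one between file sets. All 10 oocyte markers were counted in both stages, with a summed level of 6823 to 27082 CPM (counts scaled to 1e6 per library) in GV and 4738 to 6811 CPM in MII. Cumulus and granulosa markers summed to 101 to 344 CPM in GV, highest in GV1, and 14.0 to 83.7 CPM in MII. In MII 6 of 13 were at 0, among them Inha, Amh and Foxl2. Nr5a2 and Cyp19a1 were counted in all 6 MII oocytes and made up most of the MII level. From summed counts they had 31.3 and 15.6 CPM in MII, beside 83.8 and 17.1 CPM in GV. Levels below are CPM. Ratios of MII to GV were taken on summed counts and are given on the log2 scale relative to the median measured gene, whose own ratio in CPM was −0.98, so a ratio of 0 means a gene that moved like the median gene. The value after ± is the spread, the SDs between the oocytes of both stages combined, and is not an error of a mean.

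Genes with 5 CPM or more in the stage where they were higher counted as measured. Of the 33 members, 22 reached this in both stages, 7 in GV alone (Cenpb, Cenpc1, Cenpl, Cenpp, Cenpq, Cenpu and Spc24) and 4 in neither (Oip5, Cenpi, Cenpw and Nsl1). Among the 29 measured members, 5 were at least 2-fold lower in MII than the median gene, or 17.2%, beside 15.5% of the 10090 genes measured. A further 2 members were at least 2-fold higher, or 6.90%, beside 12.1% of all measured genes, and 22 lay within 2-fold. The median ratio of the measured members was −0.24 ± 0.37, with 17 below 0 and 12 above, so the set as a whole lay close to the median gene. Shares near those of all genes are no result about the set, and the members that stand apart are described 1 by 1. Of the 7 past 2-fold, 4 of the 5 lower ones had passed the filter in GV alone. In CPM with no reference to the median gene, 17 members were at least 2-fold lower and 1 was higher, beside 49.1% and 2.01% of all measured genes. With the unnamed feature left out of the totals, 7 were lower and 1 higher, beside 22.5% and 6.80%. The ratios of Cenpb, Cenpq and Spc24 (lower) and Cenpx (higher) were past 2-fold under all 30 alternatives tried, but Cenpb and Cenpq were not measured under a filter of 20 CPM, nor was Cenpb, at the filter of 5 CPM, against GV7 to GV9 alone.

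**Figure D1:**
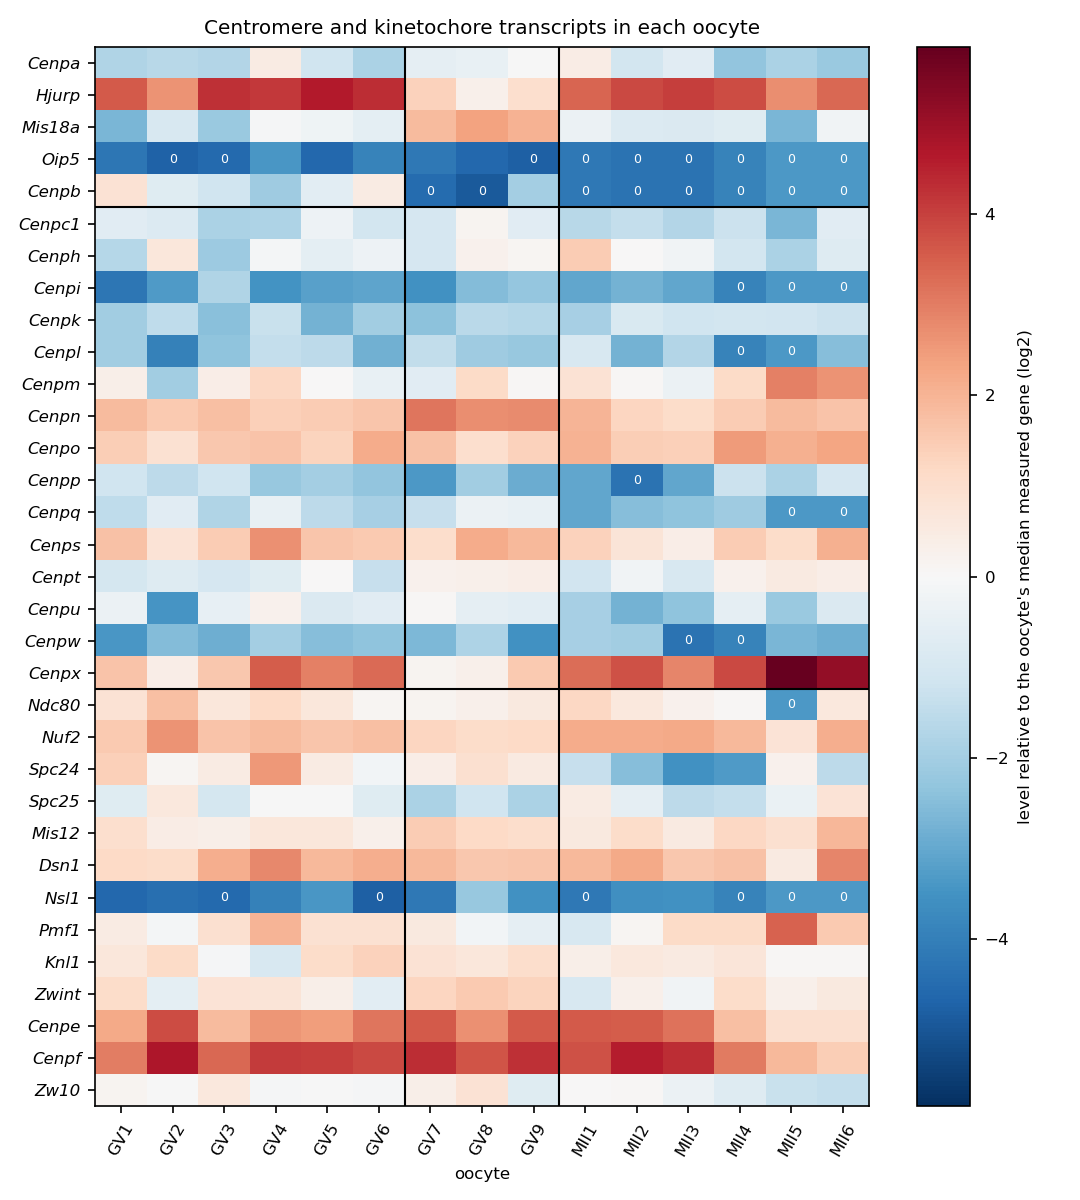
Level of each of the 33 genes (rows, grouped by role) in each of the 15 oocytes (columns), as log2(CPM + 1) minus the value of the oocyte's median measured gene, with blue below and red above the median gene and a white 0 where no count was listed. Hjurp, Cenpf and Cenpx lie above the median gene in all oocytes, Oip5 and Nsl1 are blue in all, Cenpb has 0 counts in the 6 MII oocytes and in GV7 and GV8, and Hjurp and Mis18a differ between the Y set and the E set.

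Promoter windows of these genes were compared because many kinetochore genes are known as cell cycle genes with CCAAT boxes, E2F sites and the cell cycle homology region (CHR) upstream. Of the 33 members, 31 had an entry in the RefSeq promoter table (build GRCm38.p6, 250 bases before to 50 after a start, both strands searched), with 34 windows in all. The CCAAT box (CCAAT) was in 67.6% of the members' windows and 37.4% of all 32851 windows. The CHR (TTTGAA) was in 35.3% and 17.9%, and an E2F sequence (TTTCCCGC, TTTGGCGC, TTTCGCGC or TTTGCCGC) in 17.6% and 2.26%. No sequence searched is contained in another. The last 150 bases before the start follow for 4 members on which the values below turn, 5′ to 3′ on the gene's strand, with CCAAT boxes, CHR and E2F sequences of either strand in capitals. Cenpb was at 0 in MII, Cenpq was the member whose stages did not overlap relative to the median gene, Cenpx was the most abundant per length and had the highest ratio, and Hjurp was the most abundant of its group per length, with widely different levels in the GV file sets. For Cenpx, which has 2 starts in the table, the window of the downstream start is shown.
Cenpb, chr2:131180068-131180217, minus strand: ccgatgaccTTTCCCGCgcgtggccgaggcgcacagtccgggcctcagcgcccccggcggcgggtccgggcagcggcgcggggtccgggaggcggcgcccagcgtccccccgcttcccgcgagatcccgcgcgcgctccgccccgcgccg
Cenpq, chr17:40934575-40934724, minus strand: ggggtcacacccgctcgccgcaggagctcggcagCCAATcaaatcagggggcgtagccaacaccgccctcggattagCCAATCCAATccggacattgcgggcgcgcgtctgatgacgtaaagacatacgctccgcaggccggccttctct
Cenpx, chr11:120713768-120713917, minus strand: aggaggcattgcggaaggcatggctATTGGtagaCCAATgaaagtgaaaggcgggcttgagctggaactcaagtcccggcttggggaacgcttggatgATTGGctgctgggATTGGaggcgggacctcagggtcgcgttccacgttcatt
Hjurp, chr1:88277580-88277729, minus strand: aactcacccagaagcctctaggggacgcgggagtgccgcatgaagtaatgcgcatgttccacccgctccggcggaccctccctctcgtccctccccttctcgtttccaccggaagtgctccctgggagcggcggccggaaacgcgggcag
Cenpx has 4 CCAAT boxes in this stretch and Cenpq has 3, of which 2 are side by side. Cenpb has 1 E2F sequence and no CCAAT box here. The Hjurp stretch holds none of the sequences shown in capitals, while its whole window holds a CHR and a CCAAT box. A match of letters is a description of the window and does not show that a factor binds there.

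The CENP-A loading group had 4 of 5 members measured. Of these, 2 (Mis18a and Cenpb) were at least 2-fold lower in MII and none higher, beside 15.5% and 12.1% of all measured genes. With so few members this count is no result about the group. The group's median ratio was −0.89 ± 0.98, and it was the same with Cenpb set at its floor. Against the Y set alone it was −0.32. Per length the group was led by Hjurp, the chaperone that brings CENP-A to the centromere, with 76.0 CPM per kb of transcript in GV and 38.5 in MII. Hjurp reached a lowest level of 36.1 CPM, a median of 414 and a highest of 710.4 over the GV oocytes, and 65.5, 203 and 327 CPM over the MII oocytes. The MII range lies inside the wide GV range. Its ratio was 0.00 ± 1.72.

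The GV file sets lay far apart in Hjurp. Its levels were 159 to 710.4 CPM in the Y set and 36.1 to 55.2 CPM in the E set, with no overlap between the sets. Against the Y set alone the ratio of Hjurp was −0.39, and against the E set alone it was 2.82. All 6 MII oocytes were above every oocyte of the E set in CPM, and 4 of them were above GV2, the lowest of the Y set.

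Mis18a encodes a subunit of the Mis18 complex, which licenses centromeres for new CENP-A, and it split the other way. Its levels were 4.22 to 30.3 CPM in the Y set, 79.7 to 152 CPM in the E set, and 0.607 to 13.6 CPM in MII. Over all GV oocytes the median was 22.8 CPM, beside 9.24 CPM in MII, and the ratio was −1.37 ± 2.02. It was 0.09 against the Y set and −2.96 against the E set, so the call of at least 2-fold lower rests on the E set. Without GV8 alone the ratio was −0.96, inside 2-fold.

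Cenpa, which encodes the histone variant itself, had a lowest level of 6.19 CPM, a median of 11.8 and a highest of 45.3 in GV, and 1.28, 5.31 and 23.5 CPM in MII. The stages overlapped, and the ratio was −0.41 ± 1.35. The highest GV oocyte was GV4 and the highest MII oocyte MII1. Per length Cenpa stood at 10.8 CPM per kb in GV and 4.11 in MII, below Hjurp in both stages. Oip5, the partner of Mis18a in the Mis18 complex, was listed with 22 counts over 6 GV oocytes and 0 in MII, too few for a ratio. It overlaps the exons of Nusap1, a gene with 18907 counts in GV, on the opposite strand over 9.67% of its exon bases, and no source used here says whether the counting kept the strands apart.

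Cenpb (ENSMUSG00000068267) encodes the protein that binds the CENP-B box of centromeric satellite DNA. It was listed in 7 of 9 GV oocytes, with a lowest level of 0, a median of 9.43 and a highest of 61.0 CPM. It was at 0 counts in all 6 MII oocytes, which together hold 9631574 counts. With the summed MII count replaced by a floor of 3 (0.311 CPM), Cenpb was at least 56.0-fold lower in MII by summed CPM (766 counts in GV), and its ratio at that floor was −4.82. The GV oocytes were not alike in this gene, since the Y set had 6.82 to 61.0 CPM, GV7 and GV8 had 0, and GV9 had 5.97 CPM. As 2 GV oocytes were at 0 too, the stages overlap. The floor gives at least 74.2-fold against the Y set and at least 6.04-fold against the E set. GV1, which had the highest summed cumulus marker level, was also the highest in Cenpb. GV7 and GV8 had 135 and 123 CPM of these markers with no Cenpb count. Nr5a2 alone gave 83.8 of the 165 CPM of these markers in GV (summed counts). Of the 6 markers measured between the GV file sets, 5 were at least 2-fold lower in the E set and 0 were higher. Over all genes 20.2% were lower and 18.1% higher. The part of cumulus RNA in the Cenpb counts was not tested.

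The CCAN had 13 of 15 members measured, with a median ratio of −0.34 ± 0.54. Of these, 2 were at least 2-fold lower in MII and 2 higher, beside 15.5% and 12.1% of all measured genes. The other 9 lay within 2-fold. By subcomplex the medians were 0.82 for CENP-H, I, K and M (3 measured), −0.53 for CENP-L and N, −0.76 for CENP-O, P, Q and U, and 0.35 for CENP-T, W, S and X (3 measured). The ratios ran from −2.09 to 0.55 within CENP-O, P, Q and U and from −0.50 to 2.08 within CENP-T, W, S and X, and lay closer together in the others, from 0.25 to 1.31 for CENP-H, K and M and at −0.58 and −0.48 for CENP-L and N. The sign of the group median was not stable: it was 0.03 at the highest when single oocytes were left out and 0.24 with a filter of 20 CPM.

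Cenpq (ENSMUSG00000023919) was the member whose stages did not overlap either in CPM or relative to the median gene. It encodes a subunit of the CENP-O, P, Q and U complex, which helps to bring Polo-like kinase to kinetochores. In GV it had a lowest level of 5.91 CPM, a median of 11.2 and a highest of 22.9, and in MII 0, 1.91 and 2.91 CPM, with 0 counts in MII5 and MII6. Every MII oocyte lay below every GV oocyte, both in CPM and relative to the oocyte's median gene. The relative gap was narrow, from −2.06 in the highest MII oocyte to −1.93 in the lowest GV oocyte, and Cenpq passed the filter in GV alone. Of all measured genes, 0.684% had this order relative to the median gene and 1.61% the reverse, and among the members Cenpq was the only one with either. A single member is no result about the set. The ratio was −2.09 ± 0.83, or 4.25-fold lower, and it was −1.93 against the Y set and −2.57 against the E set. The MII level rests on 14 counts in all (1.45 CPM, exact Poisson 95% interval 0.795 to 2.44 CPM), beside 555 counts in GV. Without MII5 and MII6 the ratio was −1.60.

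**Figure D2:**
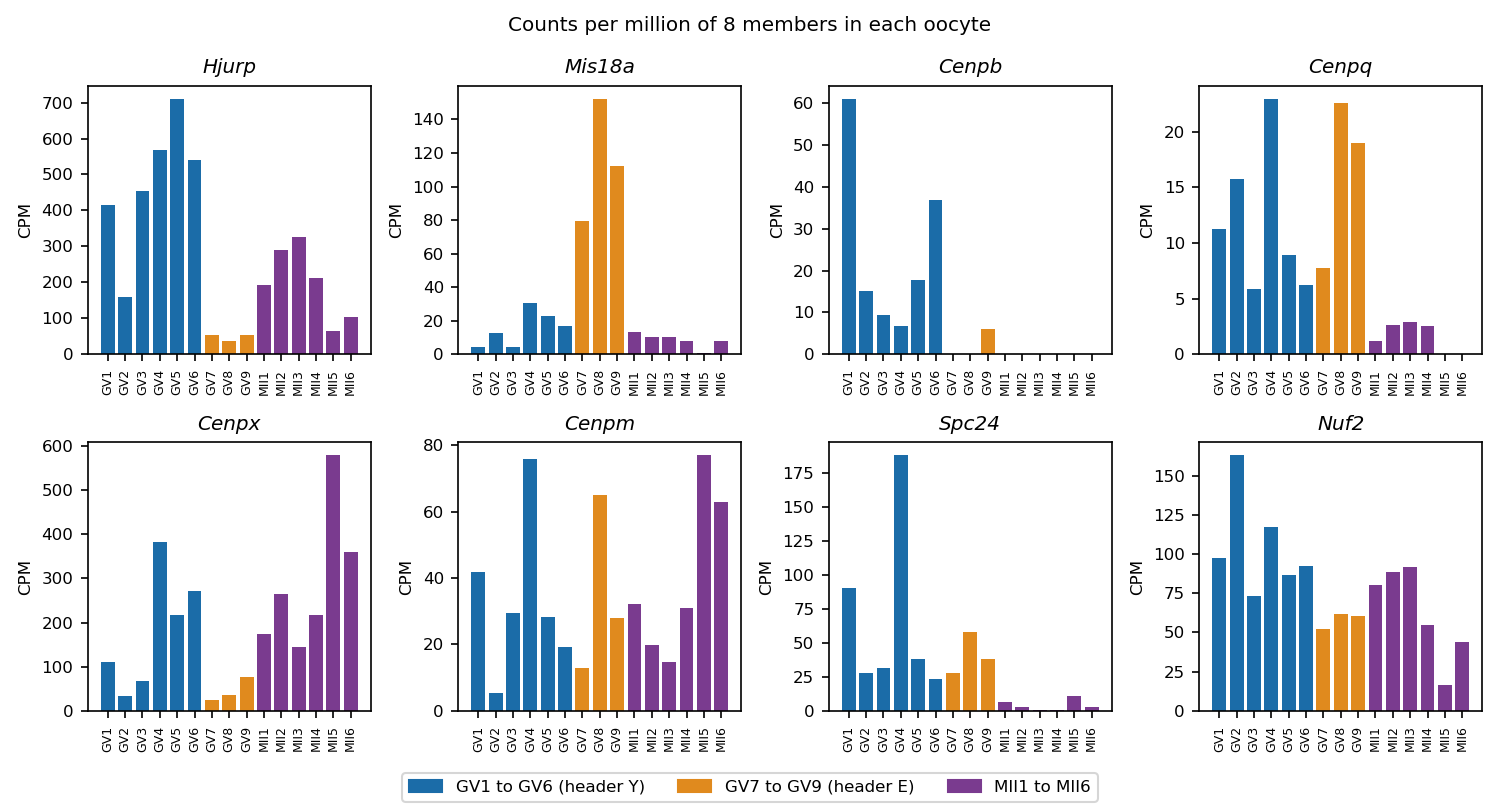
CPM in each of the 15 oocytes for 8 members (1 panel each), with bars from 0 coloured by GV file set and stage. Cenpq bars in MII stop at 2.91 CPM below the lowest GV bar of 5.91 CPM, Cenpb bars are missing in MII, GV7 and GV8, and Hjurp and Mis18a bars step in opposite directions between GV6 and GV7.

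Cenpu, a partner of Cenpq in the same complex, was at least 2-fold lower as well, with a lowest level of 1.41 CPM, a median of 17.1 and a highest of 38.7 in GV and 1.21, 3.31 and 9.32 CPM in MII. The overlap came from GV2, which at 1.41 CPM lay far below the other GV oocytes (14.9 CPM or more). The ratio of Cenpu was −1.18 ± 1.39, and it was −0.92 without MII2 and −0.9996, just inside 2-fold, without MII3. Cenpu shares 26.7% of its exon bases with Primpol on the opposite strand, a gene with 148 counts in GV. The other partners stood at 0.55 ± 0.59 (Cenpo) and −0.34 ± 1.47 (Cenpp, −1.12 from the medians of CPM). Cenpp shares 12.3% of its exon bases with Ippk, which has 16776 counts in GV, on the opposite strand, and its value is uncertain for that reason.

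Cenpx and Cenps encode the small histone-fold partners of the CENP-T, W, S and X complex, which also act with the Fanconi anemia pathway in DNA repair. Cenpx (ENSMUSG00000025144) was the most abundant member per length in both stages, with 237 CPM per kb in GV and 507 in MII. Its levels ran from 23.6 over a median of 76.7 to 383 CPM in GV, and from 144 over 241 to 580.1 CPM in MII. MII oocytes were high as a group, but GV4 to GV6 (217 to 383 CPM) reached into their range. The ratio was 2.08 ± 1.74, or 4.24-fold higher, the highest of all members, with 1.77 against the Y set, 3.64 against the E set, and 1.22 without MII5 and MII6, which had the highest levels.

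Cenps, the direct partner of Cenpx, lay within 2-fold. Its levels were 45.0, 85.7 and 208 CPM in GV (lowest, median and highest) and 20.0, 36.6 and 45.8 CPM in MII, with a ratio of −0.50 ± 0.82. Among the members it was the second per length in GV, with 86.9 CPM per kb, and the fifth in MII, with 31.1 (the fourth by exon bases of all transcripts). Cenpt, which recruits the NDC80 complex directly, had a ratio of 0.35 ± 0.97, which was 0.68 against the Y set and −0.42 against the E set. Cenpw was below 5 CPM in both stages (3.87 and 1.14 CPM from summed counts).

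Cenpm was the other member at least 2-fold higher in MII. It encodes a CCAN subunit that resembles a small GTPase. Its levels were 5.39, 28.2 and 76.0 CPM in GV and 14.6, 31.6 and 77.1 CPM in MII, which overlap almost whole. The ratio of 1.31 ± 1.67 rested on MII5 and MII6 (77.1 and 63.0 CPM), since it was 0.95 without MII5, 0.91 without MII6 and 0.20 without both. Its partners Cenpk and Cenph, in the same complex, had ratios of 0.82 ± 0.62 and 0.25 ± 1.45. Cenpi, the fourth subunit, was below 5 CPM (124 counts in GV and 6 in MII).

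The remaining CCAN members lay within 2-fold over all oocytes. Cenpn encodes the subunit that recognises the CENP-A nucleosome and was the third CCAN member per length in GV, at 64.7 CPM per kb. Its GV oocytes had 75.0 to 198 CPM and its MII oocytes 31.9 to 71.7 CPM. All MII oocytes were below all GV oocytes in CPM, which held for 3 members (Cenpn, Cenpq and Spc24) and 4.65% of all measured genes, and no member had the reverse order, beside 0.0892%. The ratio relative to the median gene was −0.48 ± 0.74, with −0.07 against the Y set and −1.35, past 2-fold, against the E set. Relative to the median gene, Cenpn was also 2.54-fold higher in the E set (183 to 198 CPM) than in the Y set (75.0 to 124 CPM). Its partner Cenpl had a ratio of −0.58 ± 1.35, which was −1.06 without MII1 and −1.30 from the medians of CPM. Cenpc1, which encodes CENP-C, the bridge from centromeric chromatin to the outer kinetochore, stood at −0.69 ± 0.92, and at −1.20 against the E set. It has a processed pseudogene, Gm13477, with 93.2% identity over 2695 bases, which was listed with 6 counts in GV and 2 in MII beside 660 and 45 for Cenpc1. A stretch of 673 bases is 93.5% identical to Gtdc1, a gene with 1883 and 207 counts, and reads may be split between such copies.

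The outer kinetochore had 12 of 13 members measured. Of these, 1 was at least 2-fold lower in MII and none higher, beside 15.5% and 12.1% of all measured genes. The other 11 lay within 2-fold. The group's median ratio was −0.14 ± 0.36, close to the median gene. Its members summed to 1179 CPM in GV and 559 CPM in MII. Per length its leading members were Pmf1 (49.3 CPM per kb in GV and 42.0 in MII), Spc24 (43.1 and 2.66) and Dsn1 (40.4 and 22.2). This order holds for 1 principal transcript per gene. Per kb of the exon bases of all transcripts it was Dsn1 (31.8 CPM per kb in GV), Cenpf (27.9), Cenpe (23.9) and Spc24 (22.9), with Pmf1 at 12.2.

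Spc24 (ENSMUSG00000074476) was the member at least 2-fold lower. The NDC80 complex has 4 subunits: Ndc80 and Nuf2 bind the microtubule, and Spc24 and Spc25 anchor the complex to the inner kinetochore. Spc24 had a lowest level of 23.1 CPM, a median of 38.0 and a highest of 188 in GV, and 0.518, 2.59 and 10.9 CPM in MII. Every MII oocyte was below every GV oocyte in CPM, and MII5 was the highest of the MII oocytes. Relative to the median gene MII5 lay inside the GV range, and its median measured gene was at 9.10 CPM. The ratio was −3.01 ± 1.62, or 8.08-fold lower, and it was −3.16 against the Y set, −2.61 against the E set and −4.15 without MII5 and MII6. Its MII sum of 35 counts (3.63 CPM) has an exact Poisson 95% interval of 2.53 to 5.05 CPM, and its GV sum of 2583 counts (58.8 CPM) one of 56.6 to 61.1 CPM.

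The other subunits of the NDC80 complex lay within 2-fold. Spc25, which pairs with Spc24 as a dimer, had 5.19, 15.9 and 38.9 CPM in GV and 4.66, 9.91 and 24.7 CPM in MII, with a ratio of 0.24 ± 1.27. Against the Y set the ratio of Spc25 was −0.03, and against the E set it was 1.35, past 2-fold higher. Ndc80 had 23.8, 39.9 and 88.4 CPM in GV and 0, 18.7 and 42.0 CPM in MII, with a ratio of −0.42 ± 1.72. Nuf2, its direct partner, had a ratio of 0.36 ± 0.73. The 0 of Ndc80 is MII5, in which 20.1% of all measured genes were at 0 and Nuf2 was also lowest, at 16.4 CPM. Ndc80 has a pseudogene, 2700099C18Rik, with 92.7% identity over 763 bases (135 counts in GV). Per length the subunits were uneven in GV, from 15.8 CPM per kb for Spc25 to 43.1 for Spc24, and in MII from 2.66 for Spc24 to 24.3 for Nuf2. Spc24 thus stood first of the 4 in GV and last in MII.

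**Figure D3:**
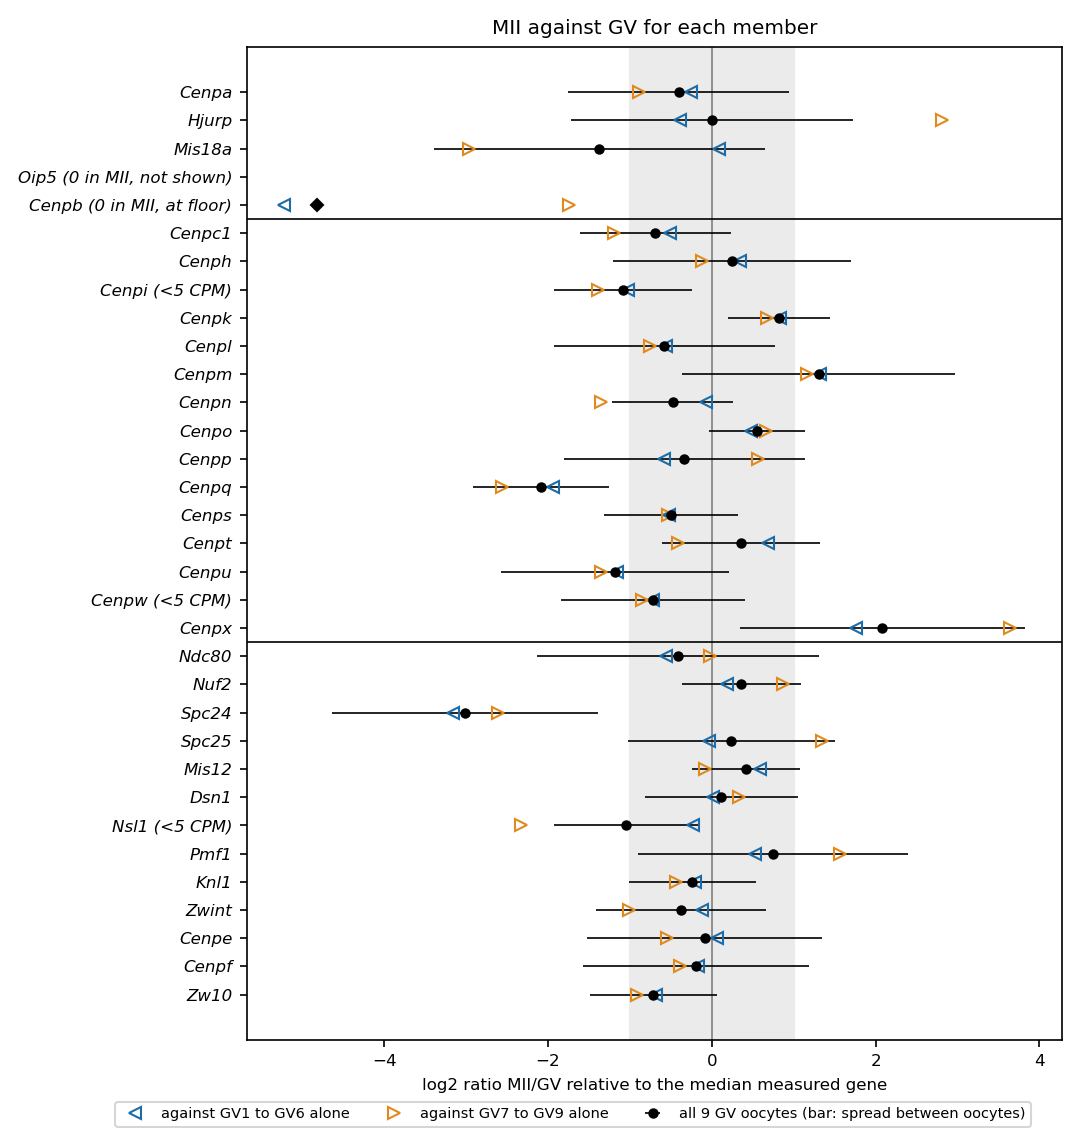
Log2 ratio of MII to GV relative to the median measured gene for each member (black circles, bar: spread between oocytes), with the ratio against the Y set (blue) and the E set (orange) alone, and grey for the range within 2-fold; Cenpb is drawn at the floor of 3 counts for each set of GV oocytes (black diamond for all). Most members lie in the grey range. Among measured members, Cenpb, Cenpq, Cenpu, Spc24, Cenpm and Cenpx lie outside it for every set, as does Cenpi, which was below 5 CPM. The triangles of Hjurp and of Mis18a lie far apart and in opposite order.

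The MIS12 complex joins the NDC80 complex and Knl1 to the centromere. Its 3 measured members lay at or above the median gene, with ratios of 0.42 ± 0.66 for Mis12, 0.12 ± 0.93 for Dsn1 and 0.75 ± 1.65 for Pmf1, and none past 2-fold over all oocytes. Pmf1 had the highest ratio of the outer kinetochore, with 17.9, 44.2 and 131 CPM in GV and 8.66, 30.1 and 109.8 CPM in MII. Its highest MII oocyte was MII5, and the ratio was 0.08 without it, −0.12 without MII5 and MII6, 1.09 without GV4, 1.004 without MII2 and 1.57 against the E set. The fourth subunit, Nsl1, was the lowest of all members per length in GV, with 0.215 CPM per kb, and had 46 counts in GV and 2 in MII. Nsl1 transcript was therefore near the limit of detection while its 3 partners were counted in every oocyte.

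Knl1, the scaffold that recruits checkpoint proteins, and Zwint, which binds it, had ratios of −0.24 ± 0.77 and −0.37 ± 1.04. Against the E set Zwint was past 2-fold lower, at −1.01. The corona is the outermost layer that forms on unattached kinetochores. Its members had ratios of −0.09 ± 1.43 for Cenpe, a kinesin motor, −0.19 ± 1.38 for Cenpf, which binds microtubules and dynein regulators, and −0.71 ± 0.78 for Zw10, a subunit of the complex that brings dynein to the kinetochore. Cenpf had 242, 441 and 686 CPM in GV and 27.3, 183 and 478 CPM in MII, and Cenpe 82.5, 197 and 364 CPM in GV and 18.2, 115 and 233 CPM in MII. In both genes MII5 and MII6 were the lowest oocytes of all, and MII1, MII2 and MII3 lay in the GV range. MII4 was also below every GV oocyte in CPM, with 124 CPM of Cenpf and 50.2 CPM of Cenpe. Both transcripts are long, and per length Cenpf (38.7 CPM per kb in GV) and Cenpe (26.1) were below Pmf1, Spc24 and Dsn1 by principal transcript, though not below Pmf1 and Spc24 by the exon bases of all transcripts.

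**Figure D4:**
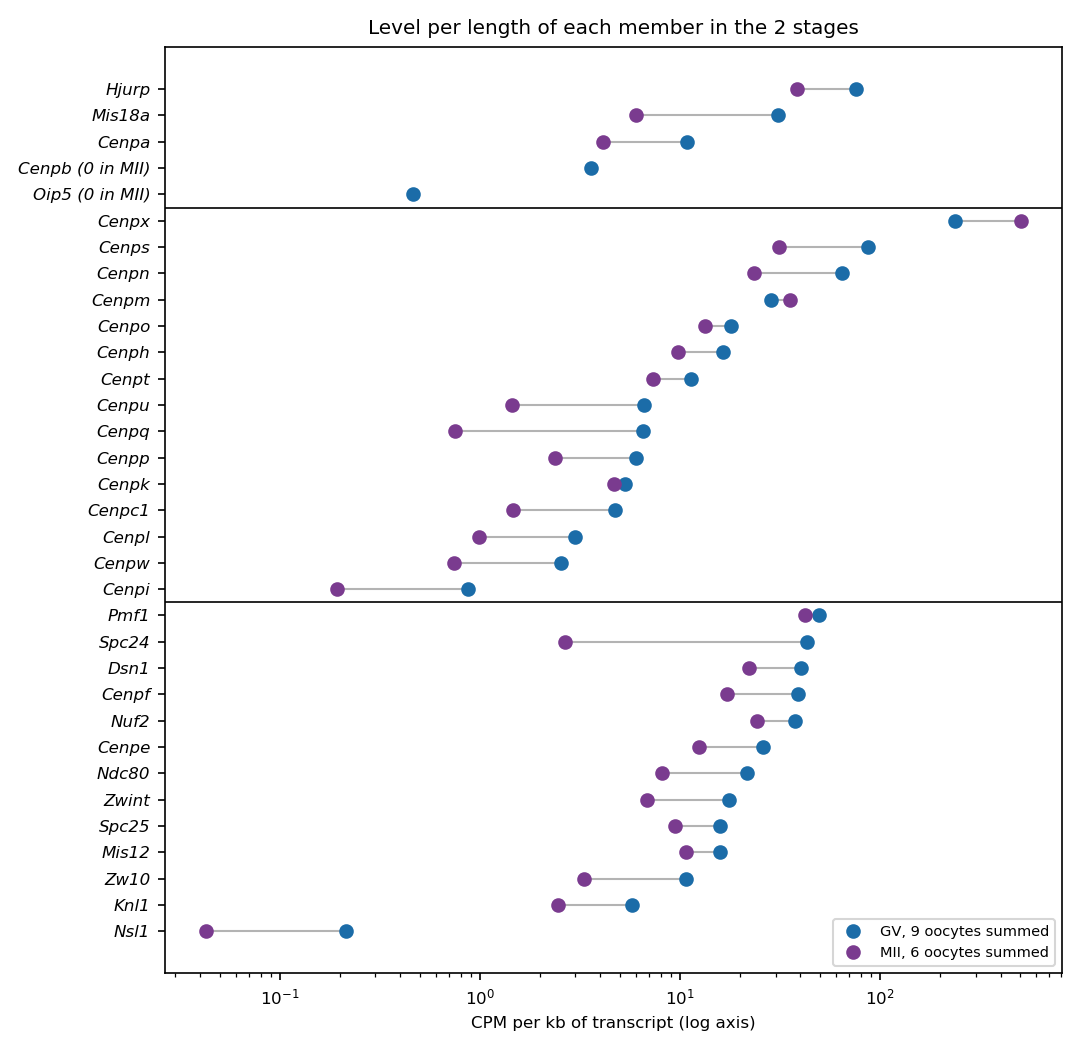
Summed level of each member per kb of its reference transcript on a log axis, in GV and in MII, with members grouped by role. Cenpx stands first in both stages, Spc24 and Cenpq have the widest gaps between stages among members counted in both, and Nsl1 and Oip5 lie lowest in GV.

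Transcript length moved with the levels of some members, and not alike in all oocytes. The median of long genes (over 4232 bases) was above that of short genes (up to 2487 bases) by 0.05 to 1.57 on the log2 scale in the GV oocytes and by 0.95 to 1.45 in MII1 to MII4. It was below it in MII5 and MII6, at −0.42 and −0.17. The same 2 oocytes had the lowest levels of Cenpe and Cenpf, whose transcripts are 7910 and 11130 bases long, and the highest levels of Cenpx and Cenpm, with 606 and 1202 bases, each relative to the oocyte's median gene. These 4 members were chosen as examples after their values were seen. Over all measured members the reversed order of MII5 and MII6 was not seen: the median of the 6 long members was above that of the 17 short members in every oocyte. The difference was 1.82 in MII5 and 0.778 in MII6, smaller than the 2.29 to 2.95 of MII1 to MII4. In GV it was 0.521 to 3.08. Its mean was 2.69 in MII1 to MII4 and 1.30 in MII5 and MII6, beside 1.18 and −0.30 for all genes. The difference thus fell in MII5 and MII6 in the members as in all genes, but from a higher level. Of the MII oocytes, MII5 was the lowest in the short members Ndc80 and Nuf2. Without MII5 and MII6, Cenpf had a ratio of 0.19 and Cenpe of 0.28. Relative to the median gene of the same length, 5 members were at least 2-fold lower and 2 higher, with Cenpx at 2.16 and Spc24 at −3.11. This scaling used counts summed per stage, over which the median ratio was 0.07 in short and −0.09 in long genes. It could therefore move the ratios little, and it does not remove the difference of MII5 and MII6 from the other MII oocytes. Cenpx stood at 1.22 and Cenpm at 0.20 without MII5 and MII6.

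**Figure D5:**
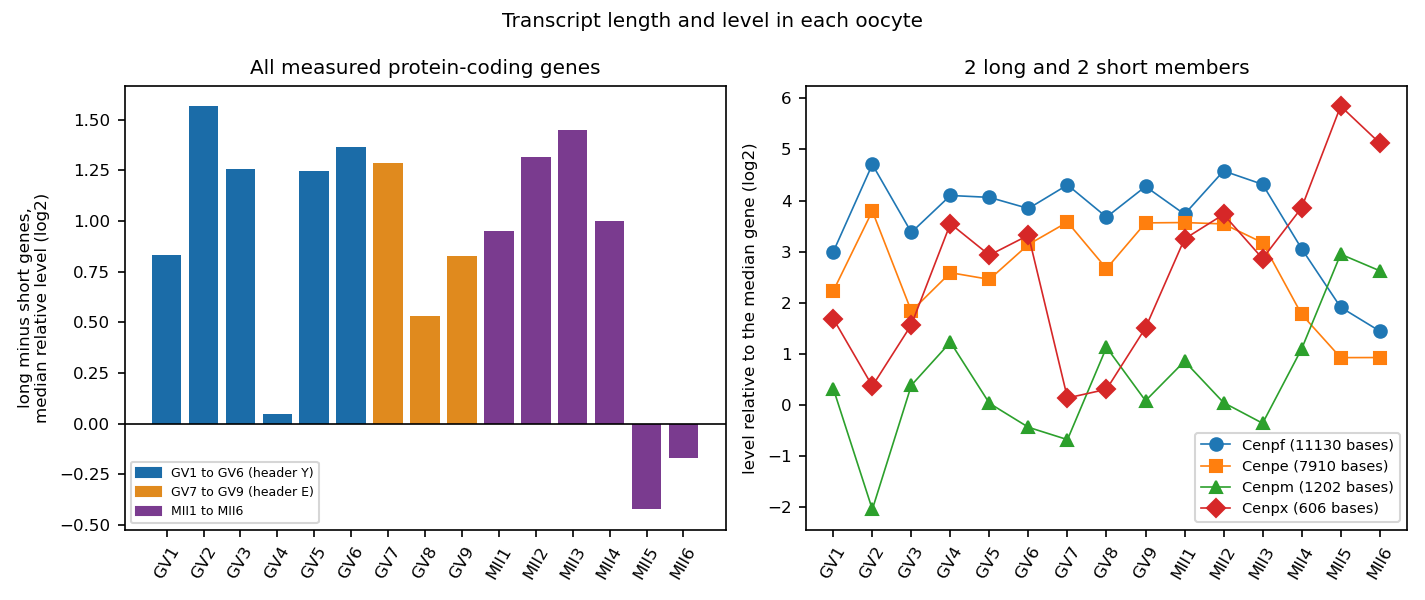
Left, level of long genes minus level of short genes (log2 medians over all measured genes) in each oocyte; right, the levels of 2 long members (Cenpf and Cenpe) and 2 short members (Cenpx and Cenpm) relative to the oocyte's median gene. MII5 and MII6 are the oocytes with values below 0 on the left (−0.42 and −0.17), and on the right both short members lie above both long members there.

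The GV file sets differed in many of these genes, as in many others. Of the 29 members measured over the GV oocytes, 5 were at least 2-fold lower in the E set than in the Y set (Hjurp, Cenpb, Cenpp, Cenpx and Spc25), beside 20.2% of 10764 genes. The 3 that were at least 2-fold higher were Mis18a, Cenpn and Cenpt, beside 18.1%. In 3 members every oocyte of the E set was below every oocyte of the Y set (Hjurp, Nuf2 and Spc25), where 6.06% of all genes had that order. In 5 members every one was above (Mis18a, Cenpn, Cenpt, Mis12 and Zwint), where 10.7% had it. The ratio between the sets was −3.39 for Cenpb, −3.14 for Hjurp, 0.70 for Cenpa and 3.11 for Mis18a. These are the 4 measured members of the CENP-A loading group, and they do not share a direction. The set and any difference between the animals, days or handling of these oocytes cannot be told apart. The same holds for the stages, as the MII oocytes have a header of their own.

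Detection was compared at a common depth of 808641 counts per oocyte. The unnamed feature was kept in these counts, so the depth left for other genes was not common and was lower in MII. At that depth 25 to 30 of the 33 members were counted in an MII oocyte, with a median of 27, and 30 to 33 in a GV oocyte, with a median of 31. The share of all measured genes at this depth was not taken. As deposited, 5.55% to 20.1% of all measured genes were at 0 in an MII oocyte and 0.426% to 3.86% in a GV oocyte. The lower count of members in MII is therefore no result about the members. Summed over all members the level was 2206 CPM in GV and 1294 CPM in MII. Between oocytes of 1 stage the members varied with a median SD of 0.72 in GV and 0.78 in MII on the log2 scale, beside 0.83 and 0.88 for all measured genes.

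Other kinetochore genes were taken as a list of 20 that holds CENP-A assembly factors such as Nasp, the Ska complex, the dynein adaptors Spdl1, Kntc1 and Zwilch, and the meiotic kinetochore gene Meikin. Of these, 18 were measured. None was at least 2-fold lower in MII and 1 was at least 2-fold higher, beside 15.5% and 12.1% of all measured genes. The median ratio of the 18 was 0.08 ± 0.78, and −0.90 in CPM without reference to the median gene. The one that was higher was Npm1, which encodes the histone chaperone nucleophosmin, with 263 to 1056 CPM in GV and 583 to 1104 CPM in MII and a ratio of 1.14 ± 0.74. The lowest ratio was −0.90 ± 1.53 for Kntc1, the partner of Zw10. The most abundant per length was Rbbp7, a histone-binding protein of the CENP-A priming machinery, at 471 CPM per kb in GV.

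Oocytes control stored transcripts through the cytoplasmic polyadenylation element (CPE), a U-rich sequence near the poly(A) signal. A CPE (TTTTAT or TTTTAAT) within 100 bases before the last poly(A) signal (AATAAA or ATTAAA) was searched in the 3′ ends of the members' reference transcripts (GENCODE M21, gene strand). It was found in 5 of the 25 members with a signal, or 20%, beside 17.8% of 15029 genes, so the members are not set apart by it. The sites of 4 of these 5 members are shown as examples of the match, with the CPE and any AATAAA or ATTAAA in capitals. In Cenph the capital AATAAA is not the last signal, which starts 24 bases after the start of the CPE and lies beyond the stretch.
Cenph: ttttacTTTTATaacttaaggAATAAAa
Cenpi: gttccaTTTTATtgatttgatttcttga
Cenpn: gtgatcTTTTATccatggcacactgaaa
Ndc80: atagtaTTTTATccccaaattatgataa
Of the 4 shown, Cenph had a ratio of 0.25, Cenpn of −0.48 and Ndc80 of −0.42, and Cenpi was not measured.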

How the data were processed

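The authors deposited 1 file per oocyte with whole-number counts by Ensembl gene ID, per the file headers and values, and cutadapt 4.0, STAR 2.7.10a and GRCm39 are named in the submitters' processing notes. Which counting tool, annotation and strand setting were used, and whether molecular identifiers were read, is not given in the sources at hand, so genes that overlap or have close copies are uncertain. Genes missing from a file were given 0 counts.

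Samples were grouped by stage label. The 33 members and 20 related genes were matched by GENCODE M21 symbol (all 53), and members, lists and the rule for named genes were chosen with earlier results of these data known. Lowest, median and highest CPM were given for each group's most abundant member per length, its lowest and highest ratio, members at least 2-fold from the median gene and members whose stages did not overlap. The related list was named by its most abundant member and its extreme ratios.

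Counts were summed per stage, 0.5 was added to each sum, and the log2 ratio of CPM was taken relative to the median gene of at least 5 CPM in the higher stage. The spread used log2(CPM + 1) relative to the oocyte's median gene, and the SDs of both stages were added in quadrature. Lengths are of 1 principal GENCODE M21 transcript per gene. Intervals are exact Poisson 95% intervals and the floor is 3 counts over a stage; PCR reads are not independent molecules, so both cover counting error only. To look for a library deposited under 2 names, the 51 oocyte pairs within a stage were compared by chi-square of their counts, and none agreed within sampling noise (7.26 or more per degree of freedom). Promoter sequences are RefSeq's, and copies were found with blastn at 90% identity over 200 bases or more.

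Alternatives were other scalings (CPM, TMM from edgeR 4.0.16, median-of-ratios from DESeq2 1.42.0), means, medians or thinned counts, other filters, each GV file set and each oocyte left out. Tools were Python 3.11.15, pandas 2.3.3, numpy 2.4.6, scipy 1.17.1 and R 4.3.3. The sequence of 1 further polyadenylation site is not reported here.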

Additional observations from a re-analysis of the deposited data

Results flagged for a closer look

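In 74 groups of oocyte levels (each measured member and the medians of the gene groups, in GV and in MII, relative to the oocyte's median gene), 7 had 1 oocyte far from the others by Dixon's criterion, which chance alone meets in about 1 group in 20. The number given is the gap to the nearest oocyte divided by the whole range. MII5 was the lowest MII oocyte in Mis18a (0.739), Ndc80 (0.741, with 0 counts) and Nuf2 (0.778). This library had 20.1% of all measured genes at 0 and a level of long genes below that of short genes (−0.42 on the log2 scale), and the part of both in these levels was not tested. MII1 was the lowest in Cenpk (0.675), at a relative level of −1.96. GV2 was the lowest GV oocyte in Cenpu (0.699) and the highest in Nuf2 (0.501), at relative levels of −3.45 and 2.64. The median level of the outer kinetochore members was highest in GV4 (0.506), at 1.50 beside 1.05 in the next oocyte.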

How the results depend on the processing

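Each value was recomputed under 30 alternatives. Leaving out 1 oocyte at a time gave 4 to 6 members at least 2-fold lower in MII, 1 to 3 higher (1 without MII5 or without MII6), and median ratios of −0.33 to −0.16 for all members, −1.13 to −0.66 for CENP-A loading, −0.49 to 0.03 for the CCAN, −0.30 to 0.01 for the outer kinetochore and 0.01 to 0.17 for the related list. In CPM without reference to the median gene, 17 members were lower and 1 higher, and the medians were −1.22 (all members), −1.87 (CENP-A loading), −1.32 (CCAN), −1.12 (outer kinetochore) and −0.90 (related list), since the median gene itself stood at −0.98. Of the members 1 was at least 2-fold higher in CPM without the unnamed feature, with the median of CPM over oocytes and without MII5 and MII6, and 5 were higher against GV7 to GV9 alone. With no filter 8 members were lower, as genes under 5 CPM then enter, and with a filter of 20 CPM 2 were lower and the CCAN median was 0.24. Shares of all measured genes were taken in CPM, with and without the unnamed feature, but not under the other alternatives. Counts of members under those others are therefore no result about the set. The ratio of Mis18a turned to 0.088 against GV1 to GV6 alone, and the cause was not tested. Over single members, 963 of 990 recomputed ratios stayed within 1 spread of the value given, 26 moved further and 1 reversed, but spreads are wide, and 18 of the 29 measured members crossed the 2-fold line under some alternative (12 without counting CPM with no reference to the median gene). Leaving out MII5 and MII6 together, leaving out GV1 and GV2 together, and ratios relative to genes of the same length were chosen after seeing the data. No paired analysis was possible because replicate numbers only name oocytes and no result comes from a test. MII libraries are shallow, so levels of Cenpi, Cenpw, Nsl1 and Oip5 there rest on 11 counts or fewer each, and a difference in them was not measurable.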
